A study of Mus musculus with 9 samples.

Results

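The data described here are the transcriptional response of BV-2 cells to lipopolysaccharide (LPS) alone. BV-2 cells are mouse microglia immortalized by a retrovirus that carries raf and myc oncogenes, and they grow as a pure culture. The Medium group received LPS and the Control group phosphate-buffered saline (PBS), with 3 libraries each, labelled Medium_1 to Medium_3 and Control_1 to Control_3. These 6 of the 9 libraries of the series carry the comparison. The 3 libraries of LPS with β-hydroxybutyrate entered the filter on low counts, the scaling and the fit's estimate of the spread. With Medium and Control alone, 10221 genes were tested. All groups are the same line, and the labels name no difference in culture other than the treatment. No duration of exposure is given for these libraries, and a single line stands here for microglia. The study's statistical methods speak of independent biological replicates, but the labels name no separate cultures, so a p-value here reflects only how far these libraries scatter, which may be technical. Of 12413 genes in the deposited count table, 10413 passed a filter on low counts and were tested, and the account covers gene families beyond cytokines, NF-κB and homeostatic markers.

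LPS is a glycolipid of the outer membrane of Gram-negative bacteria. On macrophages and microglia it is handed by CD14 to the receptor complex of TLR4 and MD-2, which signals through the adaptors MyD88 and TRIF. The MyD88 arm is known for inflammatory genes and the TRIF arm for interferon-β, whose own receptor then turns on antiviral genes through STAT and IRF factors. Activated macrophages are also known to alter their metabolism, their secretory pathway and their proliferation.

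Total counts ranged from 26755935 to 32767278 in Medium and from 23411672 to 28746863 in Control. Values are given as CPM (counts relative to the library total, scaled by the TMM method), and changes as fitted log2 fold changes of Medium over Control with their standard errors. A gene is called higher or lower where the Benjamini-Hochberg adjusted p of edgeR's quasi-likelihood test, over all tested genes, was under 0.05. At this threshold 3777 genes were higher in Medium and 3784 lower, so that 72.6% of all tested genes were called, 36.3% in each direction. Called genes with at least a 2-fold change were 806 higher (7.74% of those tested) and 1142 lower (11.0%), and the 3 Medium libraries did not overlap the 3 Control libraries in 75.1% of genes. The counts of members called in the lists below are to be read against these shares, which differed with expression level. Of 5 equal bins by mean expression, the highest had 50.4% of genes higher and 30.4% lower. The lowest bin had 20.6% higher and 38.2% lower. The 10 most abundant genes took 13.2% to 14.9% of counts in Medium and 8.82% to 9.03% in Control. With library sizes alone as the scaling, the median change over all genes was -0.27 instead of -0.01, on the log2 scale, and 2276 genes were higher and 5375 lower. Where a list's direction turned under that scaling, this is given beside its count.

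Medium replicate 3 stood apart from the other Medium libraries, at Euclidean distances of 43.1 and 44.2 in log2 CPM, against 37.3 between the other 2. Without it, 3921 genes were higher and 4002 lower, 845 and 1290 of them at least 2-fold. Of 20 macrophage and microglia markers, 17 were in the table, and their summed level was 4010 to 4990 CPM in Medium and 4550 to 4830 CPM in Control. Csf1r, Spi1, Itgam, Ptprc and Cd68 were well expressed, while the microglial markers Tmem119 and P2ry12 reached at most 0.420 and 0.126 CPM in Medium and 2.17 and 0.974 CPM in Control, and Aif1 at most 1.11 CPM in Medium and 1.59 CPM in Control. Markers of fibroblasts and endothelium summed to at most 0.0763 CPM in Medium and 0.504 in Control, those of lymphocytes to at most 0.138 CPM in Medium and 0.382 in Control, and those of neurons to at most 0.762 CPM in Medium and 0.722 in Control. The astrocyte sum of 64.6 to 85.5 CPM in Medium and 118 to 123 in Control was nearly all Aldoc, a glycolytic enzyme, with Gfap at or near 0 throughout. The oligodendrocyte sum of 23.6 to 26.6 CPM in Medium and 33.2 to 37.0 in Control was mostly Cnp. The part of these markers in the results was not tested. In 3 instances a library was listed at 0 where the other 2 libraries of its group held at least 100 counts, so a 0 in the table is not always an absence of reads.

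**Figure D1:**
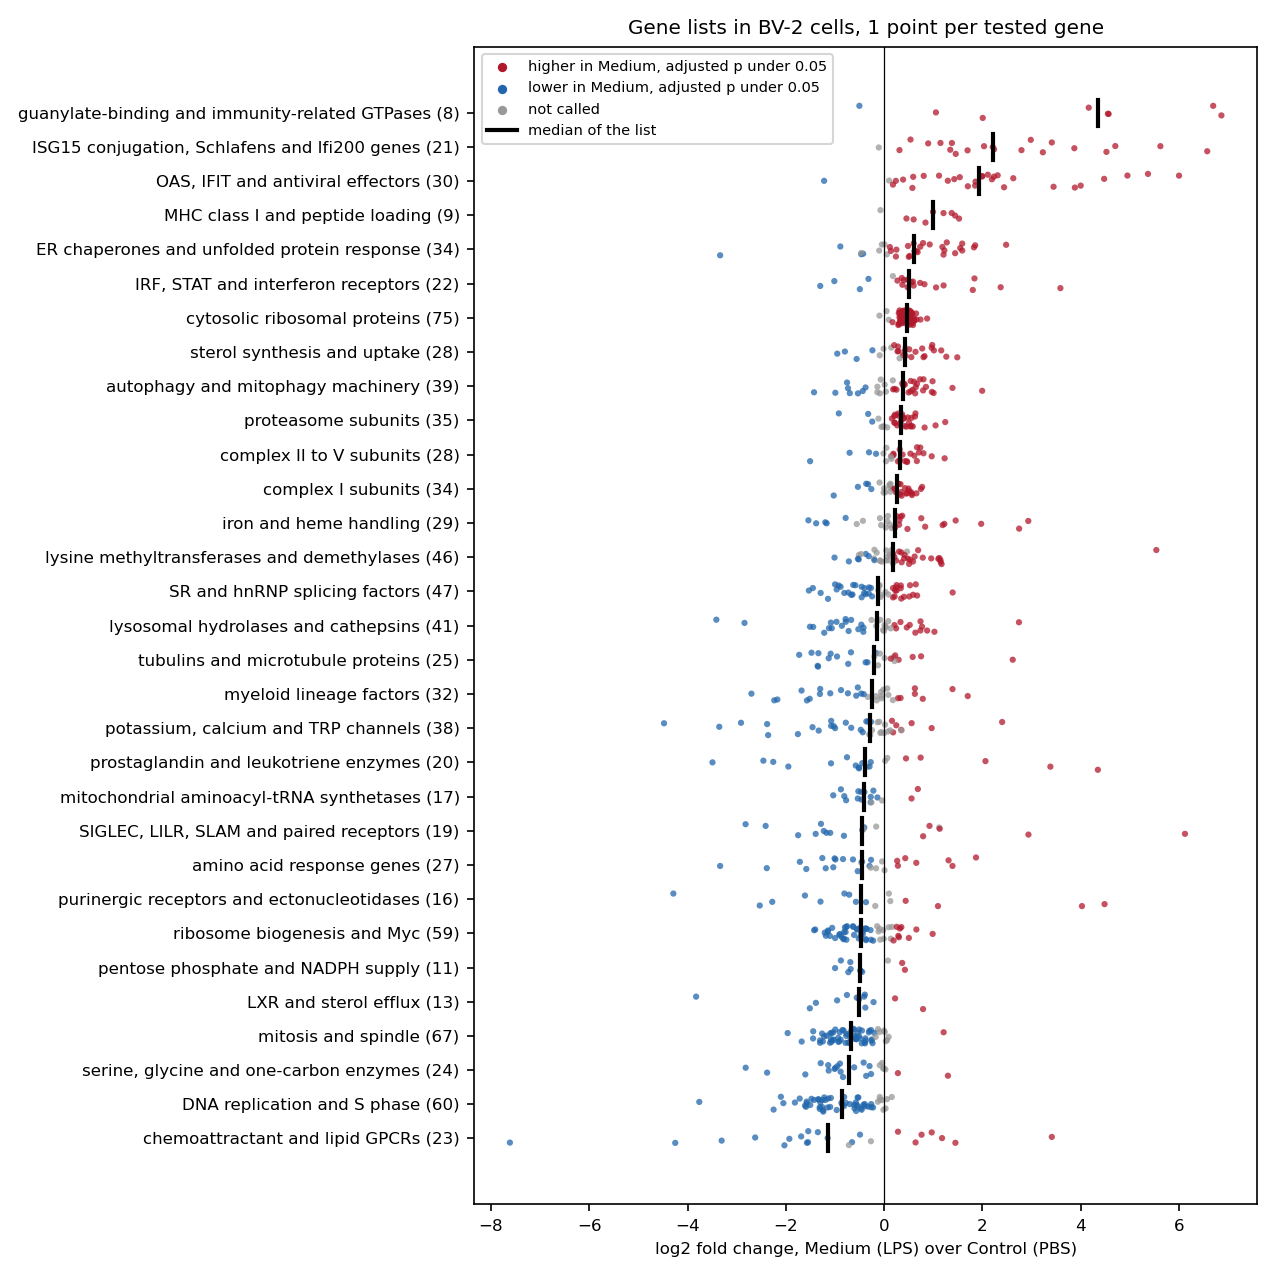
Log2 fold change of Medium (LPS) over Control (PBS) for every tested gene of 31 gene lists, ordered by the list median (black bar), with the number of tested genes in brackets. Interferon-induced GTPases and antiviral genes lie farthest to the right, and lists of DNA replication, mitosis, one-carbon metabolism and G protein-coupled receptors farthest to the left. With library sizes alone the medians of complex I subunits, iron handling and lysine methyltransferases turned negative.

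Most genes of cell division were lower in Medium. Of 60 tested genes of DNA replication and S phase, 52 fell in Medium and no member rose (median log2 fold change -0.86, against -0.01 for all genes), with 28 of them lower by at least 2-fold, where 36.3% of all tested genes were lower and 11.0% lower by at least 2-fold. Of 67 genes of mitosis and the spindle, 58 were lower and 1 was higher (median -0.66). In RNA of whole cultures, fewer dividing cells and less of these RNAs per cell cannot be told apart. Mcm7, a subunit of the helicase that unwinds DNA at replication origins, had 26.8, 26.3 and 27.2 CPM in the Medium libraries and 127, 123 and 132 CPM in the Control libraries. The groups were far apart beside a spread of a few CPM within each, and the fitted log2 fold change was -2.25 (standard error 0.0584, adjusted p = 2.74e-13 from edgeR). Its partners Mcm2 and Mcm3 had log2 fold changes of -1.57 and -1.58, and Rfc5, a subunit of the clamp loader, of -1.72. Kif11, the motor that separates the spindle poles, had 38.7, 38.8 and 34.8 CPM in Medium and 90.3, 86.5 and 89.6 CPM in Control. Mybl2, a transcription factor of dividing cells, had a log2 fold change of -1.68, the mitotic kinase Pbk of -1.96 and the midzone motor Kif20a of -1.44. Exons of Kif20a share 29.3% of their length with Cdc23 on the other strand. The study's methods speak of a strand-specific alignment, while the strand setting of the counts is not given, so reads of such pairs may not be told apart. The exception was Pttg1, the securin that holds sister chromatids together until anaphase, at 52.1, 50.9 and 39.8 CPM in Medium and 22.7, 18.7 and 20.3 CPM in Control. With Medium replicate 3 left out, 4 mitotic genes were called higher and 57 lower, and in S phase 1 higher and 52 lower. Replication-dependent histone genes, which are made in S phase, are mostly without a poly(A) tail and only 3 were tested. Hist1h2bq was the abundant one, with 1483, 1078 and 648 counts in Medium and 30, 42 and 31 counts in Control, against the direction of the S phase list.

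The regulators that bring cells into or out of the cycle did not move together. Of 23 D cyclins, CDK inhibitors and related genes, 14 were higher and 4 lower. Cdk4, the kinase partner of the D cyclins, had 113, 102 and 137 CPM in Medium and 253, 246 and 252 CPM in Control, and Ccnd2, the cyclin D2 gene, had 79.6, 77.7 and 111 CPM in Medium and 204, 211 and 204 CPM in Control. The highest Medium library of each lay well below the lowest Control library. The related kinase Cdk6 went the other way, at a log2 fold change of 0.80. Plk2, a stress-induced kinase of the polo family, rose to 1899, 1938 and 1799.7 CPM in Medium, against 374, 386 and 359 CPM in Control. Gadd45b, a stress-response gene that restrains CDK1, rose by 2.32 on the log2 scale, and Ccng2, a cyclin of arrested cells, by 1.23. Of 47 genes of DNA repair and the damage response, 32 were lower and 9 higher. Fanci, of the Fanconi anaemia pathway of crosslink repair, had a log2 fold change of -2.36, Rad54l and Brca1, of homologous recombination, of -1.74 and -1.16. Mdm2, the ubiquitin ligase of p53 and itself a p53 target, was among the higher ones (log2 fold change 0.93).

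Promoters of the dividing-cell genes carry known sequence elements, which can be seen in the bases before the start site. Stretches of 3 mitotic promoters are printed to show one of them, the core of the cell cycle homology region (TTTGAA, or TTCAAA on the other strand), in capitals. They come from the RefSeq promoter table of GRCm38.p6, cover the last 100 bases before the start site, and are written 5′ to 3′ on the gene's strand.
Kif11, chr19:37376282-37376381, plus strand: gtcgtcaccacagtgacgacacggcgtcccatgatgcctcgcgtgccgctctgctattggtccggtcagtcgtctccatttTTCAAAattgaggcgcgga
Cdk1, chr10:69352913-69353012, minus strand: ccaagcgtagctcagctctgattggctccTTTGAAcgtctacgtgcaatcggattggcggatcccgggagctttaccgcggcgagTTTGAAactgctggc
Cdc20, chr4:118437344-118437443, minus strand: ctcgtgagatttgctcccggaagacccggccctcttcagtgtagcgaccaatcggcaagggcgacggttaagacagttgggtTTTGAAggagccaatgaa
The element starts 15 to 19 bases before the start site in all 3, with a further copy in Cdk1, and the CCAAT box (ATTGG on the other strand), the site of the factor NF-Y, stands 5′ of it in each. Cdk1, the kinase that starts mitosis, had a log2 fold change of -0.40, and Cdc20, the activator of the anaphase-promoting complex, of -0.61. Over windows of 250 bases before to 50 bases after the start, searched on both strands, TTTGAA was found in 70.9% of 55 mitotic promoters and in 14.9% of 47 S phase promoters, against 11.4% of the promoters of 8344 tested genes. It was also in 4 of 5 promoters of the guanylate-binding list and in 43.8% of 16 of the Isg15 and Schlafen list, both with mostly higher genes. CCAAT was found in 72.7% of the mitotic and 61.7% of the S phase promoters, against 38.8%. The elements are described without a test, and neither marks the response as a whole. Among genes at least 2-fold lower, TTTGAA was in 11.8% of 892 promoters and CCAAT in 36.2%. Mitotic genes with TTTGAA had a median log2 fold change of -0.72 (39 genes) and those without of -0.61 (16 genes).

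**Figure D2:**
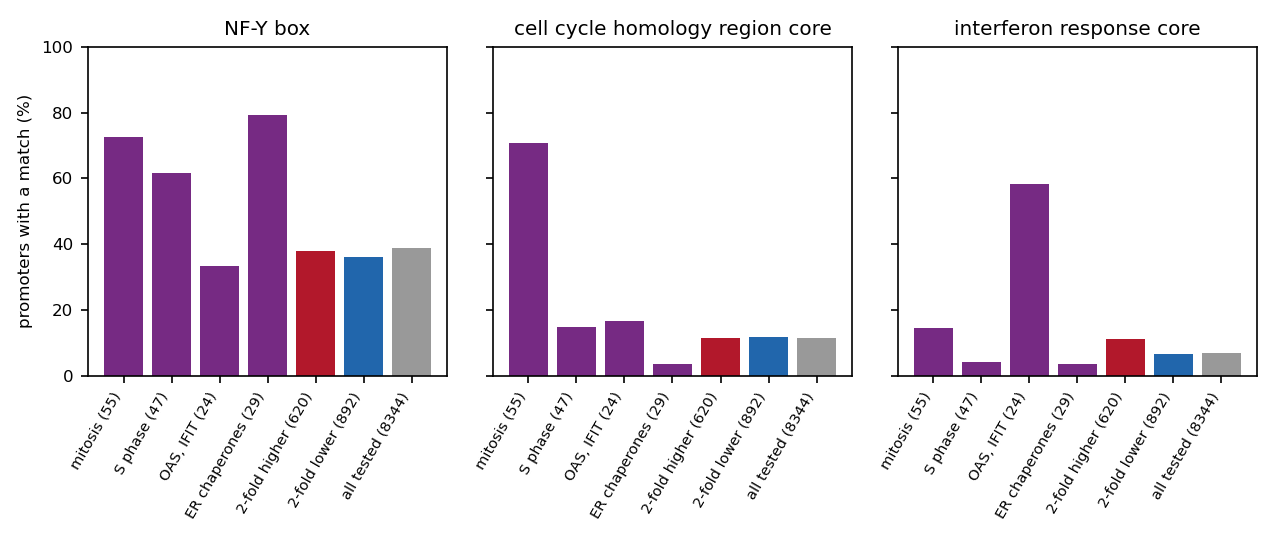
Share of promoters (250 bases before to 50 after the start site, in percent) with a match to the NF-Y box, the cell cycle homology region core and the interferon response core, for 4 gene lists (purple), the called genes at least 2-fold higher (red) or lower (blue) in Medium, and all tested genes (grey), with the number of promoters in brackets. The cell cycle core reaches 70.9% in mitotic genes and the interferon core 58.3% in the OAS and IFIT list, against 11.4% and 6.84% of all tested genes.

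Ribosomal proteins and ribosome assembly factors moved in opposite directions. Of 75 genes of cytosolic ribosomal proteins, 72 were higher in Medium and none was lower (52 and 3 with library sizes alone). Each change was small, with a median log2 fold change of 0.46 and none at 2-fold. Rps20, a protein of the small subunit, had 440.1, 419 and 375 CPM in Medium and 223, 228 and 221 CPM in Control, and Rpl24, of the large subunit, had 668, 643 and 591 CPM in Medium and 372, 391 and 375 CPM in Control. Within both genes the lowest Medium library was Medium replicate 3, and every Medium library exceeded every Control library. Ribosomal protein genes have many processed pseudogenes, and how reads shared with them were counted is not known here. Genes that assemble ribosomes in the nucleolus went the other way, with 41 of 59 lower and 9 higher (median -0.47). Rrs1, which is needed for the large subunit, had 29.4, 26.9 and 34.2 CPM in Medium and 83.5, 78.1 and 77.8 CPM in Control. Wdr43 and Rrp12, both of small-subunit processing, had log2 fold changes of -1.21 and -1.14, and the nucleolar GTPase Gnl3 of -0.90. Myc, the factor that drives many of these genes, was against the majority at a log2 fold change of 0.99. Its levels were low, at 6.37, 7.85 and 9.04 CPM in Medium and 4.34, 4.11 and 3.25 CPM in Control. The retrovirus that immortalized the line also carries a myc oncogene, and how its RNA was counted is not known here. The Myc values may therefore not cover all myc RNA of the cells.

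Initiation and elongation factors and their regulators were divided, with 23 higher and 19 lower of 54 (9 and 29 with library sizes alone, which turns the direction). Eif1, which helps the ribosome find the start codon, rose to 435, 423 and 392 CPM in Medium, against 132, 129 and 128 CPM in Control. Eef2k, the kinase that slows elongation by phosphorylating eEF2, had 9.35, 10.4 and 20.04 CPM in Medium and 53.1, 58.5 and 54.0 CPM in Control. Medium replicate 3 lay above the other Medium libraries for this gene and still far under Control, and the log2 fold change of -2.06 was -2.49 without it. In mitochondria, 13 of 17 aminoacyl-tRNA synthetases were lower and 2 higher, with Ears2 at a log2 fold change of -1.03 and Iars2 at -0.81. Mitochondrial ribosomal proteins had 33 higher and 16 lower of 74, a direction that turned with library sizes alone (13 and 33). Proteasome subunits were mostly higher, 27 against 3 of 35 (14 and 8 with library sizes alone). Psmd11, a lid subunit of the regulatory particle, had 352, 358 and 273 CPM in Medium and 141, 141 and 133 CPM in Control. Psmd6, another lid subunit, was lower (log2 fold change -0.92). Of 5 genes of the immunoproteasome and its PA28 activator, 4 were higher, led by Psme2 (log2 fold change 1.23).

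The endoplasmic reticulum (ER) and the amino acid response, which share the transcription factor ATF4, moved apart. The unfolded protein response raises chaperones through the factors ATF6, XBP1 and ATF4 when unfolded proteins build up, and the amino acid response raises transporters and synthetases through ATF4. Of 34 ER chaperones and unfolded protein response genes, 25 were higher and 4 lower (11 higher by at least 2-fold, median 0.61). Hspa5, the main chaperone BiP, had 3699, 3614 and 2682 CPM in Medium and 564, 620.0 and 602 CPM in Control. Medium replicate 3 was the lowest of the Medium libraries, and still more than 4 times every Control library. The fitted log2 fold change was 2.48 (standard error 0.104, adjusted p = 4.73e-11 from edgeR). Manf, a secreted ER stress protein, rose by 1.85 on the log2 scale, the chaperone Hyou1 by 1.59, the disulfide isomerase Pdia4 by 1.59 and the stress factor Atf3 by 1.83. The promoters of 2 genes of this list are printed for their CCAAT boxes (in capitals, ATTGG on the other strand), over the 120 bases before the start site, from the same table.
Hspa5, chr2:34771970-34772089, plus strand: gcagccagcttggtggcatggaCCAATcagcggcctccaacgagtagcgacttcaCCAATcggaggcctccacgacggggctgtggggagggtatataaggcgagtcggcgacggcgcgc
Pdia4, chr6:47813513-47813632, minus strand: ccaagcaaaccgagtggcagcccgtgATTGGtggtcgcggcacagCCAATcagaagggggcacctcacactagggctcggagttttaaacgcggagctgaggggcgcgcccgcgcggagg
CCAAT was found in 79.3% of 29 promoters of this list, against 38.8% of all, a share looked up after those of the mitotic and interferon lists. Members with the box had a median log2 fold change of 0.73 (23 genes) and those without of 0.31 (6 genes).

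Of 27 amino acid response genes, 15 were lower and 7 higher (median -0.45). Slc7a5, the light chain of the carrier that brings leucine and other large neutral amino acids into the cell, had 21.4, 20.3 and 30.9 CPM in Medium and 134, 119.8 and 126 CPM in Control. Chac1, an enzyme that degrades glutathione and a sensitive ATF4 target, had 0.277, 0.252 and 1.11 CPM in Medium and 6.24, 5.93 and 4.47 CPM in Control (log2 fold change -3.34). The arginine carrier Slc7a1 had 65.9, 61.7 and 118 CPM in Medium and 255, 235 and 246 CPM in Control, and the serine hydroxymethyltransferase Shmt2 of mitochondria had 169.8, 157 and 166 CPM in Medium and 345, 294 and 352 CPM in Control. Atf4 itself had 144, 151 and 323 CPM in Medium and 387, 364 and 395 CPM in Control. Here Medium replicate 3 lay near Control and away from the other Medium libraries, and the log2 fold change of -0.89 (adjusted p = 0.00179 from edgeR) was -1.37 without it (adjusted p = 1.67e-14). Slc7a11, the cystine carrier, was on the other side at 123, 121 and 233 CPM in Medium and 63.3, 65.8 and 63.1 CPM in Control, again with Medium replicate 3 apart. Nupr1, a stress-induced chromatin protein, and Cebpb, a factor of inflammatory genes, rose by 1.87 and 1.39 on the log2 scale. Heat shock chaperones, mostly cytosolic but with mitochondrial Hspd1, Hspe1, Hspa9 and Trap1, showed no common direction, with 5 higher and 8 lower of 23. Among them Hspa4l had a log2 fold change of 1.18 and Hsp90aa1 of -0.69.

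**Figure D3:**
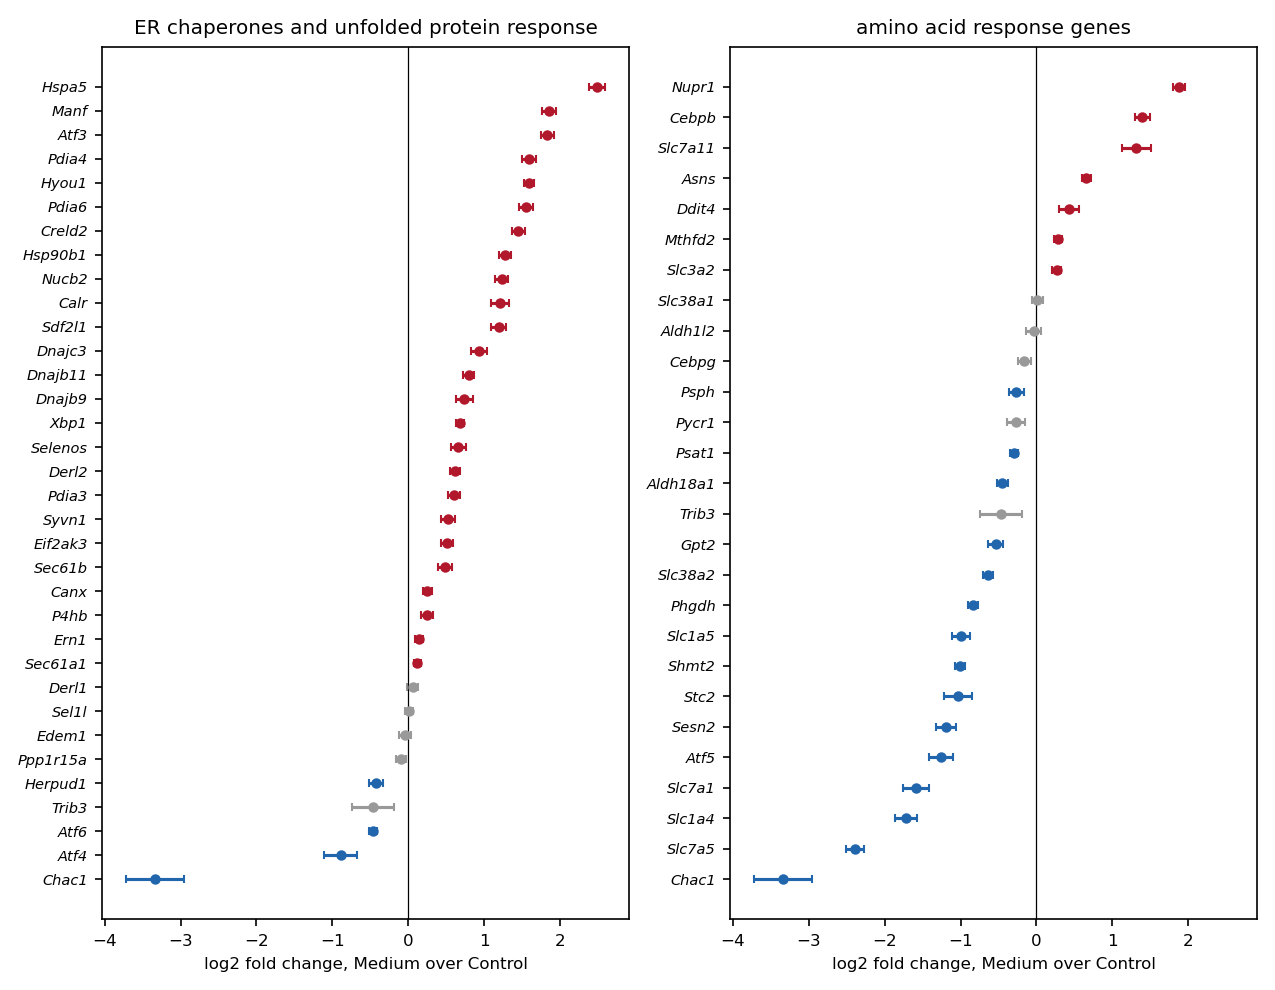
Fitted log2 fold change of Medium (LPS) over Control (PBS), with its standard error, for every tested gene of ER chaperones and the unfolded protein response (left) and of the amino acid response (right), in red where higher, in blue where lower and in grey where not called. Chac1 and Trib3 are members of both lists. On the left 25 of 34 genes lie to the right of 0 and are called, led by Hspa5, and on the right 15 of 27 lie to the left and are called, down to Chac1.

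**Figure D4:**
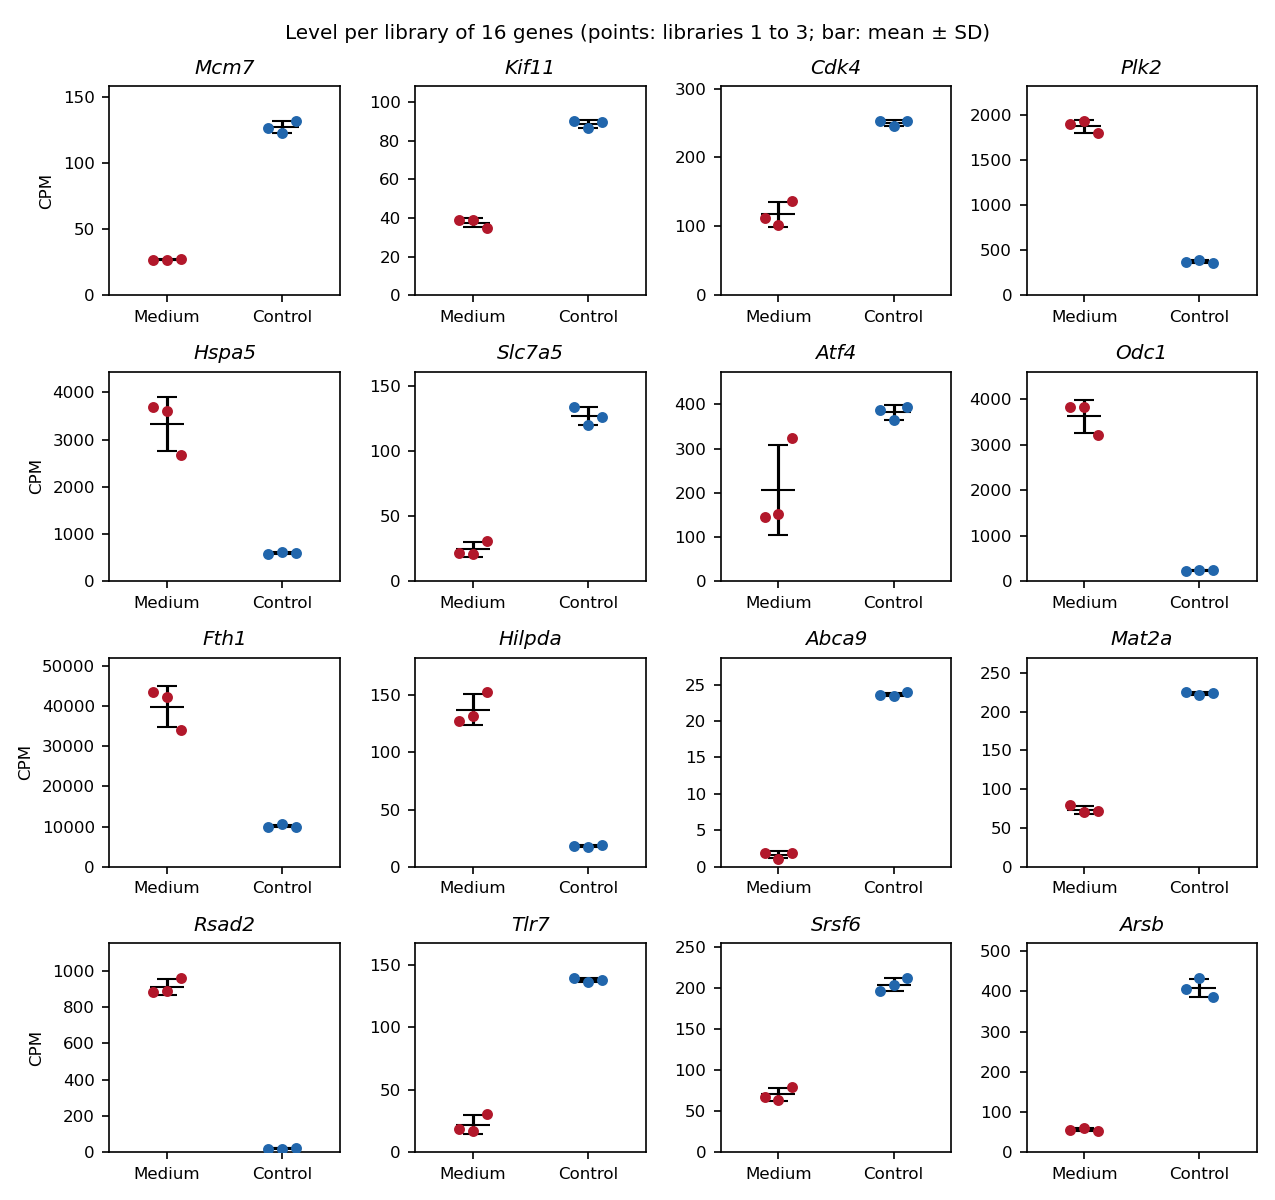
Level in CPM (linear axis from 0) of 16 genes in the 3 Medium (LPS, red) and 3 Control (PBS, blue) libraries, with the mean and SD in black. In each panel the Medium and Control libraries do not overlap, and in that of Atf4 Medium replicate 3 lies close to Control.

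Mitochondrial genes shifted by little and not all one way. Complex I had 20 subunits higher and 5 lower of 34 (median 0.26), and that direction turned with library sizes alone (8 and 12). A list of complexes II to V had 19 higher and 4 lower of 28 (11 and 9 with library sizes alone). It holds only Atp5pb and Atp5md of complex V, and it also counts cytochrome c (Cycs), which is not a subunit. Uqcrh, the hinge protein of complex III, had 102, 101 and 83.5 CPM in Medium and 40.3, 42.2 and 39.3 CPM in Control, while Ndufv3, of complex I, fell to 27.5, 26.8 and 24.5 CPM in Medium, against 54.6, 52.4 and 53.4 CPM in Control. In a list of the tricarboxylic acid cycle, pyruvate dehydrogenase, related enzymes and itaconate, 9 genes were higher and 12 lower of 27. The NADP-dependent isocitrate dehydrogenases Idh1, of the cytosol, and Idh2 had log2 fold changes of -0.88 and -0.87. The NAD-dependent enzyme of the cycle (Idh3a, Idh3b and Idh3g) is in the list, and its values are not reported here. Acod1, which makes itaconate from a cycle intermediate, stood far from the rest of that list at 1856, 1994 and 2086 CPM in Medium and 104, 113 and 108 CPM in Control. Of 39 mitochondrial carriers, 21 were lower and 12 higher, and Slc25a37, the iron importer mitoferrin 1, had 362, 366 and 416 CPM in Medium and 117, 109 and 113 CPM in Control.

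Most genes that supply nucleotides and methyl groups were lower. Of 24 enzymes of serine, glycine and one-carbon metabolism, which feed folate units into purines, thymidylate and methionine, 17 were lower and 2 higher (median -0.72). Shmt1, the cytosolic serine hydroxymethyltransferase, had 10.01, 12.1 and 12.7 CPM in Medium and 58.5, 59.6 and 62.6 CPM in Control. Mat2a, which makes the methyl donor S-adenosylmethionine, had 79.4, 69.9 and 71.2 CPM in Medium and 225, 221 and 224 CPM in Control. Gart and Atic, enzymes of purine synthesis, had log2 fold changes of -1.29 and -0.90. The exceptions were Amt, of the glycine cleavage system (log2 fold change 1.30), and Mthfd2, of mitochondrial folate (log2 fold change 0.28, and 0.01 and not called with library sizes alone). The pentose phosphate pathway supplies ribose and NADPH, and a list of pentose phosphate and NADPH supply had 8 genes lower and 2 higher of 11. That list also holds Me1, Idh1 and the phosphoribosyl pyrophosphate synthetases, which are not enzymes of the pathway, and lacks G6pdx and Pgd, which are. The transketolase Tkt had a log2 fold change of -0.73, and the synthetases Prps2 and Prps1 of -0.997 and 0.37. The call of Prps1 was lost with library sizes alone. Upp1, which salvages uracil from uridine, was one of the large increases, at 56.3, 55.0 and 59.0 CPM in Medium and 1.78, 1.78 and 1.73 CPM in Control.

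Polyamine genes changed in both directions. Odc1, ornithine decarboxylase and the entry to polyamine synthesis, had 3842, 3838 and 3208 CPM in Medium and 224, 234 and 231 CPM in Control (log2 fold change 3.98 with a standard error of 0.0863, edgeR adjusted p = 3.76e-14). Smox, which oxidizes spermine back to spermidine, rose to 273, 246 and 202 CPM in Medium, against 56.2, 48.6 and 57.3 CPM in Control. Arg1, the arginase that makes ornithine and marks alternatively activated macrophages, had 2.11, 1.09 and 0.534 CPM in Medium and 29.7, 29.0 and 29.9 CPM in Control. The next steps of synthesis were lower too, with the spermidine synthase Srm at a log2 fold change of -1.249 and the decarboxylase Amd1 at -0.51. In the whole list of arginine, nitric oxide and polyamine genes 9 were higher and 8 lower of 22 (6 and 11 with library sizes alone, which turns the direction).

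In sterol metabolism, most genes of synthesis and uptake were higher. Most genes of a mixed list of nuclear receptors, their targets and sterol transporters were lower, while its ABC transporters were divided. Of 28 genes of sterol synthesis and uptake, 19 were higher and 4 lower (median log2 fold change 0.43, 11 and 6 with library sizes alone). Npc2, which carries cholesterol out of the lysosome, had 1983, 1959 and 1546 CPM in Medium and 638, 685 and 631 CPM in Control. The squalene synthase Fdft1 and lanosterol synthase Lss had log2 fold changes of 1.16 and 0.97. Against the majority were the mevalonate kinase Mvk (log2 fold change -0.953) and the isomerase Ebp (log2 fold change -0.80), both near 10 CPM or below. Genes of the liver X receptors (LXR) and sterol efflux were lower in 11 of 13 cases and higher in 2 (median -0.51). Abca1, the exporter of cholesterol to apolipoproteins, had 31.4, 34.6 and 44.5 CPM in Medium and 98.3, 96.3 and 94.4 CPM in Control. Mylip, a ubiquitin ligase and LXR target, had 15.4, 15.8 and 13.7 CPM in Medium and 39.0, 47.5 and 41.5 CPM in Control, and the transporter Abca9 had 1.94, 1.09 and 1.91 CPM in Medium and 23.6, 23.5 and 23.9 CPM in Control. Abca7 and Abcg1 were the members that rose, by 0.79 and 0.22 on the log2 scale, with Abcg1 at -0.05 and not called with library sizes alone.

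Genes of fatty acid metabolism changed in both directions. Oxidation and droplet genes had 11 higher and 6 lower of 28, which turned with library sizes alone (6 and 16), and synthesis and desaturation genes had 5 higher and 10 lower of 21. Hilpda, a droplet protein that inhibits the lipase ATGL, had 127, 132 and 153 CPM in Medium and 18.3, 17.3 and 19.4 CPM in Control. Plin2, the droplet coat protein, had 565, 565 and 475 CPM in Medium and 227, 228 and 222 CPM in Control, and Fabp4, a fatty acid carrier of macrophages, had 751, 721 and 601 CPM in Medium and 177, 206 and 168 CPM in Control. The groups did not overlap for any of these. Cpt1a, the gate to mitochondrial fatty acid oxidation, and Hadh, an enzyme of that pathway, had log2 fold changes of -1.58 and -1.252, and the synthase Fasn of -1.14. Lpin2, a phosphatidate phosphatase, was higher (log2 fold change 1.56). Sphingolipid enzymes were lower in 14 and higher in 7 of 26 cases. Ceramide kinase (Cerk) was among the lower ones at a log2 fold change of -1.19, and Ugcg, which starts glycosphingolipid synthesis, among the higher ones at 1.32.

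Ferritin RNA was the most abundant of the Medium libraries. Fth1, the ferritin heavy chain, took 3.63% of all counts in Medium, against 1.11% in Control. It had 43461, 42264 and 33987 CPM in Medium and 9957, 10539 and 9927 CPM in Control, and the light chain Ftl1 had a log2 fold change of 1.23. Ferritin genes have processed pseudogenes, with the same limit on counting as the ribosomal proteins. Slc11a2, which moves iron out of endosomes, rose by 1.46 on the log2 scale, and Cp, the ferroxidase ceruloplasmin, by 2.75. Hmox1, which frees iron from heme, rose by 2.93 on the log2 scale, while Blvra, which reduces the biliverdin it makes, was lower at 40.0, 44.3 and 43.3 CPM in Medium and 119, 129 and 123 CPM in Control. Over the list 15 genes were higher and 5 lower of 29 (9 and 10 with library sizes alone, which turns the direction). The metallothionein Mt1, which binds zinc and copper, had 2238, 2274 and 1439 CPM in Medium and 63.0, 65.7 and 60.1 CPM in Control. The plasma membrane zinc importers Slc39a10 and Slc39a6 were lower (log2 fold changes -1.14 and -0.85), in a list of zinc transport and metallothioneins with 8 higher and 3 lower of 17 (4 and 7 with library sizes alone, which turns the direction). Among NAD-consuming enzymes, Parp10 and Parp14 rose by 1.71 and 1.504 on the log2 scale, and the ectoenzyme Cd38 had 7.86, 9.66 and 8.97 CPM in Medium and 42.0, 54.3 and 45.0 CPM in Control. The NAD list had 10 higher and 8 lower of 22 (7 and 9 with library sizes alone, which turns the direction). The superoxide dismutase Sod2, the peroxiredoxin Prdx5 and the glutaredoxin Glrx rose by 1.62, 1.67 and 1.40 on the log2 scale, in a list of glutathione and thioredoxin genes with 13 higher and 10 lower of 33 (7 and 16 with library sizes alone, which turns the direction). Mgst3, a microsomal glutathione transferase, was lower (log2 fold change -3.03).

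**Figure D5:**
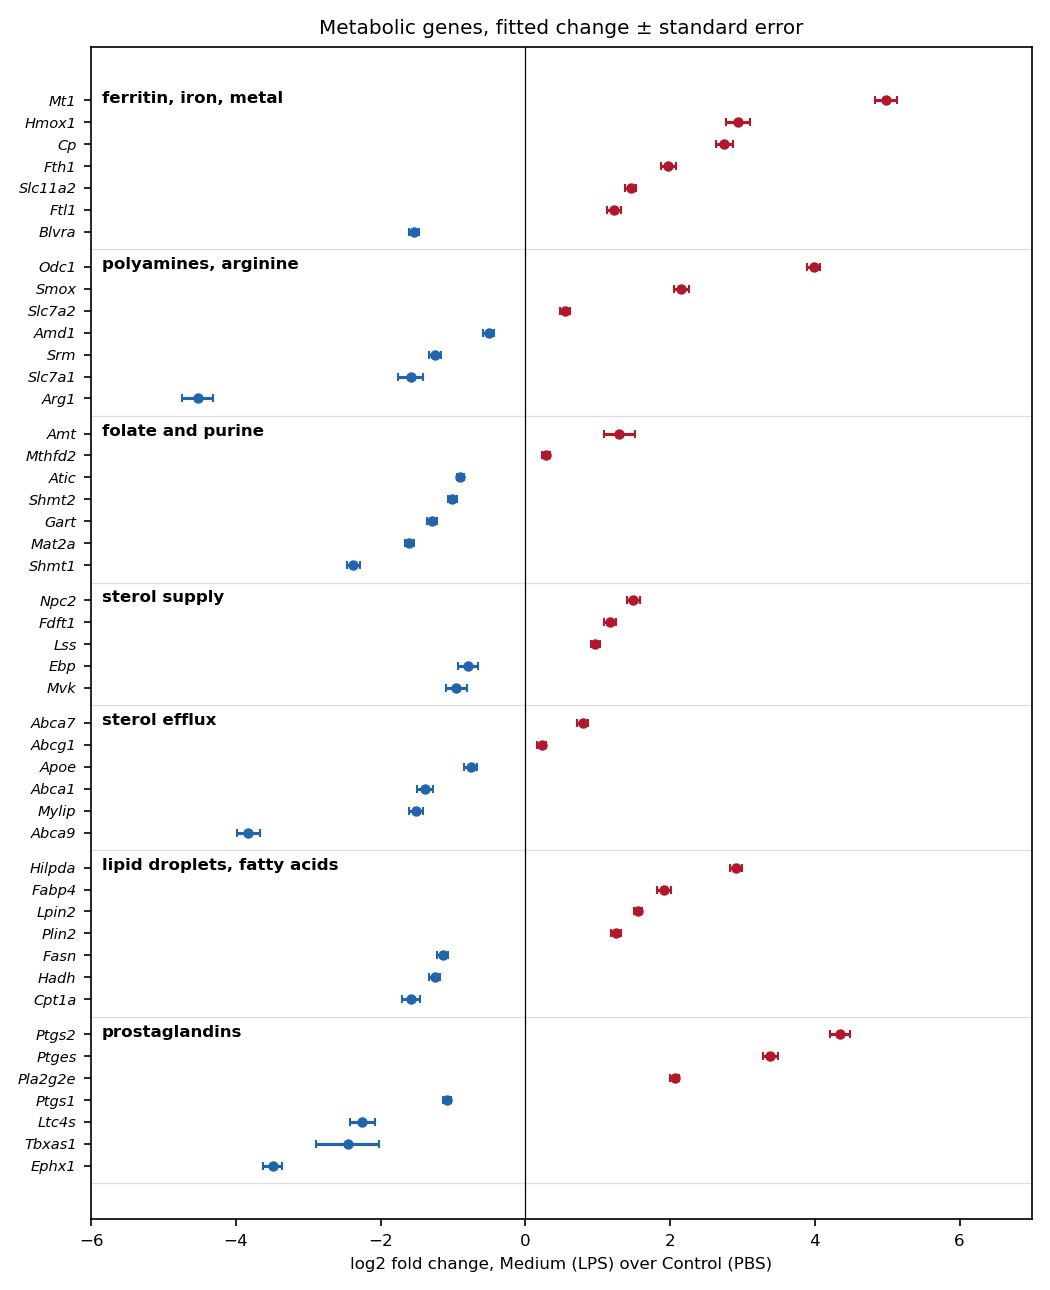
Fitted log2 fold change of Medium (LPS) over Control (PBS), with its standard error, for called genes of iron and metal handling, polyamines and arginine, folate and purine synthesis, sterol supply, sterol efflux, lipid droplets and fatty acids, and prostaglandins, in red where higher and in blue where lower. Within each block some genes lie on either side of 0, as Odc1 at 3.98 and Srm at -1.25 among polyamine genes.

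Interferon-stimulated genes had the highest list medians outside cytokines, inflammatory effectors and the 3 histone genes. Of 30 genes of the OAS and IFIT families and other antiviral effectors, 28 were higher and 1 was lower (median 1.93), of 21 genes of ISG15 conjugation, Schlafens and the Ifi200 cluster 20 were higher and none lower (median 2.21), and of 8 guanylate-binding and immunity-related GTPases 7 were higher and 1 lower (median 4.36). Rsad2, the antiviral enzyme viperin, had 884, 889.7 and 960.2 CPM in Medium and 20.9, 21.3 and 23.9 CPM in Control (log2 fold change 5.37 with a standard error of 0.0862, edgeR adjusted p = 2.55e-15). Its neighbour and co-regulated partner Cmpk2, a mitochondrial nucleotide kinase, had 52.3, 57.3 and 57.2 CPM in Medium and 3.80, 3.95 and 3.54 CPM in Control. The Schlafen gene Slfn4 had 840.1, 793 and 796 CPM in Medium and 17.4, 15.5 and 16.5 CPM in Control, with Slfn2 at a log2 fold change of 2.80. Isg15, a ubiquitin-like modifier, had 183, 181 and 144 CPM in Medium and 5.97, 6.95 and 6.50 CPM in Control, and Ifit3, which acts with Ifit1 on foreign RNA, had 80.6, 84.7 and 73.3 CPM in Medium and 1.05, 1.31 and 1.34 CPM in Control. The guanylate-binding proteins Gbp2, Gbp3 and Gbp6, which attack the vacuoles of intracellular microbes, had log2 fold changes of 6.87, 4.57 and 4.56. The members of the Gbp, Oas, Ifit and Slfn families are close relatives, so reads shared between them may be split. The genes against the majority were the cytidine deaminase Apobec1 (log2 fold change -1.22) and Ifi47, an immunity-related GTPase, at 3.70, 4.995 and 4.62 CPM in Medium and 6.75, 6.73 and 5.34 CPM in Control. The call of Ifi47 was lost on leaving out Medium replicate 1, Control replicate 1 or Control replicate 2, with adjusted p of 0.0996, 0.0821 and 0.0810 from edgeR.

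The promoters of 4 of these genes are printed to show the core of the interferon-stimulated response element, GAAANNGAA on either strand, in capitals. Complexes of STAT and IRF factors, and IRF factors on their own, are known to bind it.
Rsad2, chr12:26456453-26456592, minus strand: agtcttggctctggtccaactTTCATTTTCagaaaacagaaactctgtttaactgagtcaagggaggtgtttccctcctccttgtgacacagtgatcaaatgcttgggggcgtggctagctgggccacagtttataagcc
Ifit3, chr19:34583359-34583528, plus strand: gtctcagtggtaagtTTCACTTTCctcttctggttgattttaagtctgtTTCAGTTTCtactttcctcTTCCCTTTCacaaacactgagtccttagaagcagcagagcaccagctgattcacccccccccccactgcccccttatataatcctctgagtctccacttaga
Isg15, chr4:156200819-156200918, minus strand: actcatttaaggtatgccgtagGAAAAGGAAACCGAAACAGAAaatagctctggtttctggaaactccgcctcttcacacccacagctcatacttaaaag
Gbp3, chr3:142559944-142560043, plus strand: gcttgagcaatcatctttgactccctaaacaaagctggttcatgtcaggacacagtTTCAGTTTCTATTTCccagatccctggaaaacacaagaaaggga
Each run ends at the last base before the start site. Isg15 and Gbp3 hold overlapping copies, 3 and 2, and Ifit3 holds 3 apart from each other. The core was found in 58.3% of 24 promoters of the OAS and IFIT list, in 4 of 5 of the guanylate-binding list and in 12.5% of 16 of the Isg15 and Schlafen list, against 6.84% of all tested genes. Promoters of cytosolic ribosomal proteins held it in 18.2% of 55 cases. It was also found in 11.1% of 620 promoters of genes at least 2-fold higher and in 6.50% of 892 of genes at least 2-fold lower. OAS and IFIT genes with the core had a median log2 fold change of 2.00 (14 genes) and those without of 1.27 (10 genes), and Slfn4 and Oasl2 have no copy in this window. The cAMP response element TGACGTCA was in 3.06% of the promoters of genes at least 2-fold higher and the E-box CACGTG in 9.03%, against 3.42% and 10.3% of all tested genes.

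Most factors and receptors of the interferon pathway were higher too. Of 22 genes of the IRF and STAT families and the interferon receptors, 17 were higher and 4 lower. The interferon-β gene Ifnb1 was too low to be tested, at 18, 4 and 0 counts in Medium and 0, 0 and 2 counts in Control. Irf7, the main amplifier of interferon production, had 862, 833 and 632 CPM in Medium and 61.2, 68.5 and 63.5 CPM in Control. Stat2 rose by 1.81 on the log2 scale, and the kinase Jak2 by 1.84. Ifngr1, the ligand-binding chain of the interferon-γ receptor, was lower at 15.3, 16.5 and 15.0 CPM in Medium and 27.7, 35.0 and 31.5 CPM in Control. The RNA sensors Ddx58 and Dhx58 (RIG-I and LGP2) rose by 1.998 and 1.70 on the log2 scale, and the DNA sensor Aim2 by 1.35. Of 9 genes of MHC class I and peptide loading, 8 were higher and none lower, with B2m, the light chain, at 3893, 3846 and 3045 CPM in Medium and 1313, 1349 and 1297 CPM in Control. The TRIM ubiquitin ligases, a family often grouped with interferon genes, had 10 higher and 14 lower of 35, where 36.3% of all tested genes were called in each direction. Trim25, which ubiquitinates RIG-I, was among the higher ones (log2 fold change 1.34).

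The receptors with which the cells meet LPS and other microbial ligands did not move together. The Toll-like receptor list had 10 genes higher and 7 lower of 23 (7 and 9 with library sizes alone, which turns the direction). Cd14 had 658, 673 and 648 CPM in Medium and 104, 99.4 and 102 CPM in Control. Tlr4 itself was lower, with a log2 fold change of -1.39. Tlr7, the endosomal receptor of single-stranded RNA, fell to 18.3, 17.2 and 31.0 CPM in Medium, against 139, 137 and 138 CPM in Control. Cd180, a TLR4-like receptor, was also lower (log2 fold change -2.33), and the kinase Irak2 was higher (log2 fold change 1.38). The lectins Clec4e and Clec4d, which bind mycobacterial glycolipids, rose by 2.42 and 2.59 on the log2 scale, while Clec5a was lower (log2 fold change -2.24), in a list of C-type lectins with 5 higher and 5 lower of 15 (3 and 6 with library sizes alone).

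Among G protein-coupled receptors most changes were decreases. Of 23 chemoattractant and lipid receptors, 14 were lower and 7 higher, with the lowest median of the lists in the plot (-1.15). Gpr183, which guides cells along oxysterols, had 2.42, 1.76 and 1.49 CPM in Medium and 35.0, 40.9 and 33.1 CPM in Control. Ptafr, the receptor of platelet-activating factor, and Hcar2, the receptor of niacin and β-hydroxybutyrate, were higher, with Hcar2 at 126, 128 and 125 CPM in Medium and 62.5, 66.8 and 64.1 CPM in Control. Of 16 purinergic receptors and ectonucleotidases, 9 were lower and 4 higher. The ATP-gated channel P2rx7 had 22.02, 16.5 and 27.9 CPM in Medium and 70.2, 67.2 and 66.1 CPM in Control, and P2ry6, the UDP receptor of phagocytosis, had 1.52, 2.06 and 1.41 CPM in Medium and 10.4, 9.34 and 9.06 CPM in Control. Adora2a, the adenosine receptor that restrains macrophages, went the other way at 7.75, 9.53 and 7.21 CPM in Medium and 0.388, 0.351 and 0.758 CPM in Control. Downstream of such receptors, the arrestin Arrb1 had 38.2, 40.6 and 43.6 CPM in Medium and 213, 216 and 207 CPM in Control and the kinase Grk6 a log2 fold change of -1.32. The phosphodiesterases Pde4b and Pde7a rose by 1.87 and 1.39 on the log2 scale, and Pde7b had a change of -3.80. The α1A-adrenergic receptor Adra1a was among the 12 largest increases in a ranking that left out lists such as cytokines and inflammatory effectors. It had 41.1, 34.5 and 44.6 CPM in Medium and 2.29, 1.82 and 1.15 CPM in Control.

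The list of SIGLEC, LILR, SLAM and paired receptors, which holds inhibitory and activating receptors, had 11 lower and 5 higher of 19. Cd33, a sialic acid receptor, had 96.7, 106 and 85.9 CPM in Medium and 322, 345 and 303 CPM in Control, the collagen receptor Lair1 had 3.67, 4.24 and 4.16 CPM in Medium and 25.7, 32.3 and 27.0 CPM in Control, and Cd300a, which binds phosphatidylserine, had 8.55, 8.61 and 7.90 CPM in Medium and 112, 119 and 112 CPM in Control. The 3 Medium libraries lay below the 3 Control libraries in each. Slamf8 and Slamf7 rose by 6.12 and 2.94 on the log2 scale. Of the ligands that act on T cells, Cd274 (PD-L1) had 428, 467 and 417 CPM in Medium and 44.4, 45.7 and 41.5 CPM in Control and Lgals9 rose by 2.14 on the log2 scale, while Tnfsf13b (BAFF) was lower (log2 fold change -3.03). The integrin Itgax had a log2 fold change of -2.56, and Itga5, the fibronectin receptor chain, of 1.24.

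Phosphatases and cytokine brakes that limit kinase signalling changed in both directions. Dusp1 and Dusp5, phosphatases of MAP kinases, had log2 fold changes of 2.84 and 2.84, and Socs3 and Cish, which block cytokine receptors, of 3.69 and 2.47. Socs3 varied among the Medium libraries, at 144, 172 and 257 CPM in Medium and 13.3, 15.1 and 16.02 CPM in Control. The phosphatase list had 9 higher and 5 lower of 20, with a median log2 fold change of 0.17 that turned to -0.09 with library sizes alone, and the list of SOCS proteins and other cytokine brakes had 8 higher and 5 lower of 15 (6 and 6 with library sizes alone). AP-1, immediate early and stress factors had 15 higher and 7 lower of 29, 10 and 5 of them at 2-fold (12 and 12 with library sizes alone, so that the direction was lost). Among them were Junb at 259, 279.6 and 268 CPM in Medium and 31.5, 30.2 and 31.0 CPM in Control and Ier3 at a log2 fold change of 2.77 on one side, and on the other Egr3 at 2.25, 2.22 and 2.82 CPM in Medium and 26.7, 23.4 and 23.5 CPM in Control and Klf2, a factor of resting cells, at -2.699. In the phosphoinositide 3-kinase list 10 genes were higher and 11 lower of 28 (7 and 17 with library sizes alone). Akt1 had 190.3, 189 and 183 CPM in Medium and 369, 376 and 366 CPM in Control, while Rictor, of the mTORC2 complex, and the factor Foxo3 rose by 1.18 and 1.03 on the log2 scale. Pim2, a kinase that promotes survival, rose to 109, 106 and 87.0 CPM in Medium, against 3.53, 4.69 and 3.65 CPM in Control. Id3 and Id2, inhibitors of helix-loop-helix factors and targets of BMP signalling, rose by 5.76 and 1.70 on the log2 scale, the stress cytokine Gdf15 by 3.47, and Nrros, which presents TGF-β1 on microglia, had 43.6, 44.0 and 40.3 CPM in Medium and 162, 166 and 171 CPM in Control. The TGF-β and BMP list held 12 higher and 7 lower of 26 (7 and 10 with library sizes alone, which turns the direction). Exchange factors of small GTPases were lower in 21 and higher in 12 of 44 cases, with Rasgrp3, an activator of Ras and Rap1, at 96.3, 97.6 and 78.6 CPM in Medium and 694, 726 and 686 CPM in Control.

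Of 41 lysosomal hydrolases and cathepsins, 18 were lower and 12 higher (8 and 2 at 2-fold), and the 73.2% called are close to the 72.6% of all tested genes. Arsb, which removes sulfate from glycosaminoglycans, had 56.7, 60.6 and 54.3 CPM in Medium and 407, 433 and 387 CPM in Control, and the acid phosphatase Acp2 and lysozyme Lyz2 had log2 fold changes of -1.12 and -1.08. Ctsb, one of the 10 most abundant genes in Medium, was higher (log2 fold change 0.77). Slc15a3, a lysosomal carrier of histidine and bacterial muropeptides, rose to 1388, 1438 and 1497 CPM in Medium, against 203, 195 and 193 CPM in Control. Its exons share 28.1% of their length with Tmem132a on the other strand. Autophagy and mitophagy genes were higher in 24 and lower in 8 of 39 cases (median log2 fold change 0.39, 17 and 14 with library sizes alone). Sqstm1, the cargo receptor p62, had 2288, 2263 and 2381 CPM in Medium and 588, 563 and 586 CPM in Control, and Atg12, a conjugation factor, rose by 1.39 on the log2 scale. Bnip3, a mitophagy receptor, and Atg3, a conjugating enzyme, were lower (log2 fold changes -1.43 and -0.99). Among Rab GTPases, Rab7b had 47.8, 53.2 and 41.2 CPM in Medium and 211, 250.3 and 207 CPM in Control and Rab20 rose by 1.73 on the log2 scale, in a list of 15 higher and 12 lower of 42 that turned with library sizes alone (5 and 21).

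Eicosanoid enzymes changed in both directions. Ptgs2, the inducible cyclooxygenase, had 663, 598 and 535 CPM in Medium and 31.2, 28.3 and 28.6 CPM in Control, and Ptges, the synthase of prostaglandin E2, had 80.0, 85.0 and 95.1 CPM in Medium and 7.87, 9.15 and 7.80 CPM in Control. The constitutive cyclooxygenase Ptgs1 had a log2 fold change of -1.08, the thromboxane synthase Tbxas1 of -2.46 and the leukotriene C4 synthase Ltc4s of -2.26. Ephx1, an epoxide hydrolase, had 5.44, 8.23 and 7.71 CPM in Medium and 75.8, 81.6 and 81.6 CPM in Control. Over the list 12 genes were lower and 5 higher of 20.

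Genes of cell death had no common direction. The BCL-2 family had 5 higher and 2 lower of 14 (2 and 6 with library sizes alone, which turns the direction). The survival gene Bcl2l1 and the death gene Bcl2l11 both rose, by 1.08 and 1.22 on the log2 scale, and Bid was lower (log2 fold change -1.27). Cflar, which blocks caspase-8, and Traf1 rose by 1.36 and 5.28 on the log2 scale, and death receptors and IAP proteins had 8 higher and 3 lower of 15 (5 and 5 with library sizes alone). Of inflammasome, caspase and gasdermin genes 10 were higher and 11 lower of 25. Casp4, the murine caspase-11 that binds LPS inside the cell, had 47.6, 44.0 and 48.7 CPM in Medium and 11.9, 10.04 and 9.24 CPM in Control. Nlrp3 was lower (log2 fold change -0.77), as was Nlrp1a (log2 fold change -2.91), and the kinase Ripk1 had 38.01, 34.8 and 36.8 CPM in Medium and 79.6, 82.0 and 80.7 CPM in Control.

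Among splicing factors, the 2-fold decreases were in the SR family. In the list of SR and hnRNP factors 23 genes were lower and 17 higher of 47, and the strongest decreases were those of Srsf6, Srsf5, Srsf3 and Srsf7. Srsf6 had 68.0, 64.1 and 80.0 CPM in Medium and 197, 204 and 212 CPM in Control, Srsf3 had 56.5, 59.7 and 66.9 CPM in Medium and 147, 153 and 148 CPM in Control, and Srsf7 had 47.4, 47.1 and 48.5 CPM in Medium and 108, 105 and 103 CPM in Control. Clk3, a kinase that phosphorylates SR proteins, went the other way at 182, 174 and 165 CPM in Medium and 66.2, 65.2 and 66.5 CPM in Control. Genes of mRNA decay were higher in 14 and lower in 10 of 30 cases (11 and 16 with library sizes alone, which turns the direction). Zfp36 (tristetraprolin), which removes cytokine mRNAs through their AU-rich elements, had 296, 329 and 226 CPM in Medium and 14.2, 16.4 and 15.6 CPM in Control. The endonuclease Zc3h12a (regnase-1) and its relative Zc3h12c rose by 2.65 and 1.96 on the log2 scale, while Zfp36l1, a relative of Zfp36, had 41.5, 39.3 and 41.5 CPM in Medium and 94.7, 89.0 and 83.7 CPM in Control.

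Of chromatin genes, the lysine methyltransferases and demethylases were higher in 22 and lower in 7 of 46 cases, a direction that turned with library sizes alone (14 and 19). Ezh1 and Jarid2, of the Polycomb repressive complex, rose by 1.11 and 1.17 on the log2 scale, and the demethylase Kdm7a by 0.96. Tet2, which oxidizes methylcytosine, had 188, 185 and 155 CPM in Medium and 59.7, 58.5 and 65.0 CPM in Control, and Dnmt3a, which sets methylation, had 155, 155 and 149 CPM in Medium and 252, 248 and 251 CPM in Control. Acetyltransferase, bromodomain and DNA methylation genes had 12 higher and 6 lower of 25 (4 and 10 with library sizes alone, which turns the direction). Hdac9 was lower (log2 fold change -2.63). Of 32 myeloid lineage factors, 15 were lower and 7 higher (9 and 2 at 2-fold). The factor Fli1 had 15.5, 15.5 and 16.6 CPM in Medium and 51.2, 50.5 and 50.8 CPM in Control, and Mef2a, which maintains microglial enhancers, had 104, 102 and 107 CPM in Medium and 217, 226 and 225 CPM in Control. Nr4a1, an immediate early nuclear receptor, rose by 2.23 on the log2 scale. In the circadian clock Per1, Nr1d1 and Clock rose by 1.76, 1.70 and 1.04 on the log2 scale and Dbp and Nfil3 had changes of -1.11 and -0.93, with 8 higher and 7 lower of 19 (5 and 9 with library sizes alone, which turns the direction).

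Tubulin and microtubule genes were lower in 13 and higher in 6 of 25 cases. Tuba1b, the main α-tubulin, had 276, 284 and 276 CPM in Medium and 699, 702 and 721 CPM in Control, and Tubb4b, a β-tubulin, had 68.1, 74.6 and 72.9 CPM in Medium and 179, 179 and 191 CPM in Control. Tuba1c, nearly identical to Tuba1b in sequence, had the same log2 fold change of -1.34, and reads common to the pair may be split. Actin genes were higher in 30 and lower in 17 of 60 cases, which turned with library sizes alone (19 and 28). Marcks, which links membrane to actin, rose to 48.2, 48.7 and 73.5 CPM in Medium, against 6.48, 6.85 and 5.45 CPM in Control. Gsn, the filament-severing gelsolin, had 169.99, 168 and 147 CPM in Medium and 877, 957 and 854 CPM in Control, and Tmsb4x, which holds actin monomers, rose by 1.42 on the log2 scale. Potassium, calcium and TRP channels were lower in 19 and higher in 7 of 38 cases, 11 and 1 of them at 2-fold. Trpm2, a channel opened by ADP-ribose, had 7.13, 6.93 and 9.77 CPM in Medium and 27.9, 26.6 and 25.9 CPM in Control, and the store-operated channel Orai3 a log2 fold change of -1.08. Serpins and protease inhibitors had 6 higher and 6 lower of 16 (6 and 7 with library sizes alone). Slpi, an inhibitor of neutrophil elastase, rose by 4.25 on the log2 scale, while Plau, the urokinase, had 712, 753 and 412 CPM in Medium and 1319.7, 1438 and 1275 CPM in Control, and Serpinb1a fell to 91.1, 86.4 and 65.3 CPM in Medium, against 476, 514 and 484 CPM in Control. Plxna1 and Nrp2, receptors of semaphorins, rose by 1.68 and 1.17 on the log2 scale, Nrp1 had a change of -1.62, and Ntng2, a netrin-like guidance protein, had 87.6, 85.8 and 97.8 CPM in Medium and 0.814, 1.34 and 0.902 CPM in Control.

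Some of the largest changes were in genes outside the lists. Procr, the endothelial protein C receptor, had 609, 584 and 542 CPM in Medium and 27.9, 28.7 and 30.1 CPM in Control. It was one of the 12 largest increases in the ranking without cytokines and inflammatory effectors. F7 and F10, coagulation factors VII and X, were among the 12 largest decreases in the same ranking, which also left out homeostatic markers. F10 had 6.13, 7.18 and 5.15 CPM in Medium and 60.3, 74.6 and 58.2 CPM in Control, and F7 had 15.8, 15.5 and 19.5 CPM in Medium and 119, 131 and 127 CPM in Control. They are neighbours on chromosome 8 of GRCm38, F7 at 13026034 to 13035809 and F10 at 13037308 to 13056676 in GENCODE M21. F13a1, the transglutaminase that crosslinks fibrin, had 112, 122 and 133 counts in Control and was listed at 0 in every Medium library, so that it was at least 114-fold lower in Medium (against a floor of 3 counts over the group, counting error only). Other large decreases were Nos1, the neuronal nitric oxide synthase (12.7, 14.5 and 13.6 CPM in Medium and 104, 104 and 94.5 CPM in Control), and Selenbp1, a methanethiol oxidase (15.0, 15.1 and 12.5 CPM in Medium and 119.8, 134 and 115 CPM in Control).

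Some genes were read only, or nearly only, in 1 condition. Heatr9 had 492, 358 and 182 counts in Medium and none in Control, at least 370.0-fold higher. Tspan10, Ipcef1, Grin1 and Cxcr2 were listed at 0 in every Medium library, with Control sums of 379, 259, 231 and 173 counts, and were at least 117-fold, 80.3-fold, 71.6-fold and 53.6-fold lower. Klhl3 had 2 counts over the Medium libraries and 387 over the Control libraries, a ratio of 180 of Control to Medium (95% counting interval 49.5 to 1491). In all, 5 genes had at most 3 counts over Control and at least 50 in every Medium library (with Heatr9 these were Il6, Il12b, Gbp5 and Zbp1), and 6 genes the reverse.

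On the chromosomes, 9 runs of at least 4 neighbouring tested genes, with gaps of at most 500 kb, were all called and at least 2-fold changed in the same direction. The longest held the 5 genes Oas2, Oas3, Oas1g, Oas1a and Oas1d on chromosome 5 from 120730333 to 120921652, all higher. On chromosome 11 from 82910550 to 83190216 the run was Unc45b, Slfn5, Slfn2 and Slfn4, all higher. Among the 3 runs that were lower, one on chromosome 11 from 117809668 to 117855743 held Syngr2, the thymidine kinase Tk1, Afmid and the mitotic survivin Birc5. Another, on chromosome 1 from 73910231 to 74194631, held Tns1, Rufy4 and the chemokine receptors Cxcr2 and Cxcr1.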

How the data were processed

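BV-2 mRNA was sequenced on an Illumina NovaSeq instrument, and the authors deposited a table of raw counts per gene symbol for 9 libraries. The study's methods name STAR, run strand-specifically, and StringTie on GRCm38, while the submitters' processing notes list FastQC 0.11.5, Trimmomatic, HISAT2 and StringTie. The tool that counted reads and its strand setting are not given in the sources used here. The deposited counts were tested in R 4.3.3 with edgeR 4.0.16 (TMM scaling, filterByExpr, quasi-likelihood test of Medium against Control in 1 fit of all 9 libraries, Benjamini-Hochberg adjusted p under 0.05). The test was also run on simulated counts in which few genes changed, unlike these data, so that run does not check the scaling. Alternatives used DESeq2 1.42.0, limma 3.58.1, other scalings, filters and samples.

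The gene lists and members were chosen with earlier results of these data known, so no list was tested as a set. Named genes were the 12 largest changes in each direction (mean log2 CPM of at least 3, no overlap). That ranking left out predicted genes and the lists of cytokines, NF-κB, homeostatic markers, inflammatory effectors and glycolysis. Further rules added, in each list, up to 4 called members with the smallest p and up to 2 against the majority. They also added genes near 0 in 1 group and the 10 most abundant per group. A further 37 genes were named after their values were seen. Of the symbols, 99.2% were found in GENCODE M21, and 8344 tested genes (80.1%) had a RefSeq promoter (GRCm38.p6). Intervals and floors cover counting error only. The series' comparisons with β-hydroxybutyrate were not analysed here, and some genes that the rule names are not reported here.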

Additional observations from a re-analysis of the deposited data

How the results depend on the processing

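The 4 counts over all genes stayed within 1.5 times their value under DESeq2, limma-voom, RLE factors, both other filters, Medium and Control alone and each left-out library. Without adjustment of p, the counts at 2-fold were 809 higher and 1147 lower. Leaving out 1 library gave 3564 to 3921 genes higher and 3535 to 4002 lower, and at 2-fold 785 to 845 higher and 1084 to 1290 lower, the highest of each without Medium replicate 3. With library sizes alone, 2276 genes were higher and 5375 lower, and 1719 were at least 2-fold lower. A test against a 2-fold change left 526 genes higher and 637 lower. With the replicate number as a block (replicate block), 3733 genes were higher and 3755 lower, and 797 higher and 1130 lower at 2-fold. The deviations of same-numbered Medium and Control libraries had correlations of -0.03, 0.06 and 0.05 across genes. Those of differently numbered libraries ranged from -0.08 to 0.03. With 3 libraries per group these values cannot show whether same-numbered libraries were prepared together. The block changed no call of a named gene. Abcg1 (log2 fold change -0.046) and Ptprc (-0.10) turned negative with library sizes alone, neither past the threshold there. For genes near 1 CPM or below, depth limits what can be compared, and values listed at 0 are not always an absence of reads.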

Other observations

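Matrix and scavenging genes held some of the large changes outside the families described above. Mmp13, a collagenase, had 474, 472 and 379 CPM in Medium and 1.32, 2.45 and 1.23 CPM in Control. The inhibitor Timp1 rose by 2.46 on the log2 scale, and Timp2 had a log2 fold change of -0.93. In the whole list of matrix metalloproteinases, ADAMs and inhibitors 14 genes were higher and 7 lower of 30. Cfb, factor B of the alternative complement pathway, had 37.7, 39.2 and 24.04 CPM in Medium and 0.427, 0 and 0 CPM in Control, and C3, the central component, rose by 1.78 on the log2 scale, in a list of 12 with 5 higher and 3 lower that turned with library sizes alone (4 higher and 6 lower). Among scavenger receptors Msr1 rose by 2.66 on the log2 scale, and Mertk, which clears dying cells, had 3.88, 3.32 and 4.58 CPM in Medium and 12.2, 12.3 and 12.7 CPM in Control. The list of Fc, scavenger and phagocytic receptors had 8 genes higher and 8 lower of 21 (6 and 11 with library sizes alone).

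The lysosomal proton pump and its membrane showed 17 genes higher and 12 lower of 37, which turned with library sizes alone (12 higher and 17 lower). Atp6v0d2, a pump subunit of osteoclasts and some macrophages, had 49.9, 54.0 and 36.6 CPM in Medium and 126, 155 and 120.5 CPM in Control. Of genes that process the amyloid precursor protein 8 were higher and 6 lower of 19, again turned with library sizes alone (6 higher and 8 lower). Clu, the extracellular chaperone clusterin, had 633, 620.5 and 401 CPM in Medium and 86.9, 75.8 and 79.0 CPM in Control. Nuclear receptors had 12 genes higher and 8 lower of 24 (7 and 9 with library sizes alone, which turns the direction). S100 proteins and annexins had 4 genes higher and 8 lower of 16, with S100a4 at 48.3, 41.0 and 38.9 CPM in Medium and 124, 138 and 139 CPM in Control.

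Called genes were not spread evenly over expression levels. Of 5 equal bins of tested genes by mean expression, the lowest had 20.6% of genes higher and 38.2% lower (median log2 fold change -0.32), and the highest had 50.4% higher and 30.4% lower (median 0.15).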
